A study of Homo sapiens with 2 samples.

Results

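RBMS3-binding sites were examined in the transcripts of 42 genes that build, anchor to or remodel the extracellular matrix. The genes were taken from a fixed list of integrin subunits, adhesive glycoproteins and laminins, collagens, matrix proteases with their inhibitors, and enzymes that modify collagen, out of 20046 protein-coding genes in GENCODE release 44. Every site on the transcribed strand of a listed gene was counted, which gave 223 of the 27706 sites called for the whole experiment, and a gene without a site was kept as unbound. The sites come from MDA-MB-231 cells, an established line of triple-negative breast cancer, that carried FLAG-tagged RBMS3 and were irradiated with ultraviolet light before immunoprecipitation through the tag (CLIP-seq). The single group had 2 biological replicates, whose reads the authors pooled before sites were called. The source and cell line labels of replicate 2 give another number for the line than its title does, and it was treated as MDA-MB-231. The tagged protein was introduced into the cells, so its amount and its contacts need not be those of the endogenous protein.

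The extracellular matrix is a mesh of collagens, laminins and glycoproteins such as fibronectin that surrounds cells and lines epithelia and vessels. Integrins are receptors made of an alpha and a beta chain that grip this mesh from the cell surface, proteases such as MMP14 cut it, TIMP proteins block the proteases, and lysyl oxidases and hydroxylases harden newly made collagen. Tumor cells that invade a tissue use the same parts, and MDA-MB-231 is often studied as an invasive line. RBMS3 is an RNA-binding protein that recognizes sequences rich in A and U, often in the 3′ untranslated region (3′UTR) of mRNAs.

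A site is the position of a base that is deleted in some of the sequenced fragments, called tags, and the deletion is read as a mark of the protein crosslinked to the RNA. Each site has 2 counts, its coverage in pooled tags and the tags among them with the deletion. Because no counts per replicate, no control library and no expression values were analysed here, no difference below was tested, and the number of tags on a transcript cannot be told apart from the abundance of that transcript. Intervals are 95% Wilson intervals and cover counting error only, and nearby sites share tags. The library was made by adding a poly(A) tail to the bound RNA and priming on it, and mRNA ends that carry their own poly(A) tail offer the primer the same target. The part of this step in the results on transcript ends was not tested. As a check of the cells, the mesenchymal transcripts VIM, CD44, AXL, CAV1 and S100A4 all had 3′UTR sites, with up to 97102 tags. Of 7 luminal or epithelial transcripts, ESR1, PGR and CDH1 had none and GATA3, EPCAM, KRT8 and KRT19 had 1 site each, with at most 3104 tags. Having a site did not set these 7 apart, since 4 of them had one, against 31.8% of all protein-coding genes. The check therefore rests on depth, in which S100A4 was the lowest of the mesenchymal transcripts with up to 9639 tags. A site is not an expression level.

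The strongest sites of each role are shown first, since the results turn on where they lie. Each sequence is 30 nt of the hg38 reference on the strand of the transcript, with T for U. Capitals mark the deleted base and, where AATAAA or one of its more usual variants is near, this poly(A) signal, the hexamer that directs cleavage of the mRNA end. The usual hexamer is AATAAA, and the variants marked here differ from it by a single base. A deletion in a run of equal bases is listed at the lowest coordinate, which is the first base of the run for genes on the plus strand and the last for genes on the minus strand.
ITGA2 (chr5:53094556-53094585, plus strand): aactgtaaaAATAAAtgcatGtttgtacaa
ITGA3 (chr17:50090448-50090477, plus strand): ctcacggcgaccAATAAAcagctcccagtt
ITGA6 (chr2:172506153-172506182, plus strand): ataTttgtataaaagtgtgaAATAAAtttt
THBS1 (chr15:39597433-39597462, plus strand): aacaacAATAAAtcatatggaaaTttatat
LAMC1 (chr1:183145557-183145586, plus strand): tatttatAATAAAatctgaataTttgtaac
FN1 (chr2:215360864-215360893, minus strand): aactgttttAATAAAagattTacattccac
COL13A1 (chr10:69958896-69958925, plus strand): atgtctctaatacaTtttttgtttggtcgt
COL6A1 (chr21:46005017-46005046, plus strand): ctgacttttccAAATAAAggttttcactcc
COL4A2 (chr13:110512989-110513018, plus strand): acgactacaaAATAAAacTtggttctgaat
TIMP3 (chr22:32863007-32863036, plus strand): attctaaacAGTAAAgtggTtttatttcta
TIMP2 (chr17:78853244-78853273, minus strand): aaatatttaaAATAAAgttTacattgtagt
MMP14 (chr14:22847724-22847753, plus strand): tcaaccTttccacaaagAATAAAttgtgtt
SERPINH1 (chr11:75572746-75572775, plus strand): tgtacaTtttttttttcAATAAAacttttc
PLOD3 (chr7:101205980-101206009, minus strand): cactctgAATAAAggacagttTgtaagtct
P4HA1 (chr10:73007228-73007257, minus strand): aacaatgacctattTatgatcttaaatctt
The deletion lies in or near AATAAA in each of these sequences except those of TIMP3, which carries the variant AGTAAA, COL13A1, in which the rarer variant AATACA (not in capitals) stands just before the deletion, and P4HA1.

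RBMS3 sites were widespread over the list. At least 1 same-strand site was present in 35 of the 42 genes (83.3%, against 37.6% of all protein-coding genes), and 32 genes had a site in the 3′UTR (76.2%, against 31.8%). A 3′UTR site with deletions in under 30% of its tags was found in 29 genes (69.0%, against 27.6%). A 3′UTR site covered by at least 10000 tags was found in 13 genes (31.0%, against 6.60%). Because the genes were listed with earlier results known and the background includes genes that this line may not express, these shares describe the list and are not evidence of preferred binding. The 7 genes without a site were ITGA5, the alpha chain of the classical fibronectin receptor, ITGB3, LAMB2, COL1A1, COL6A2, MMP1 and PLOD1. In ITGA4, COL5A1 and LAMA3 every site lay outside the 3′UTR. Sites with deletions in 30% or more of the tags were the only 3′UTR sites of SPARC, LAMA4 and PLOD2.

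**Figure D1:**
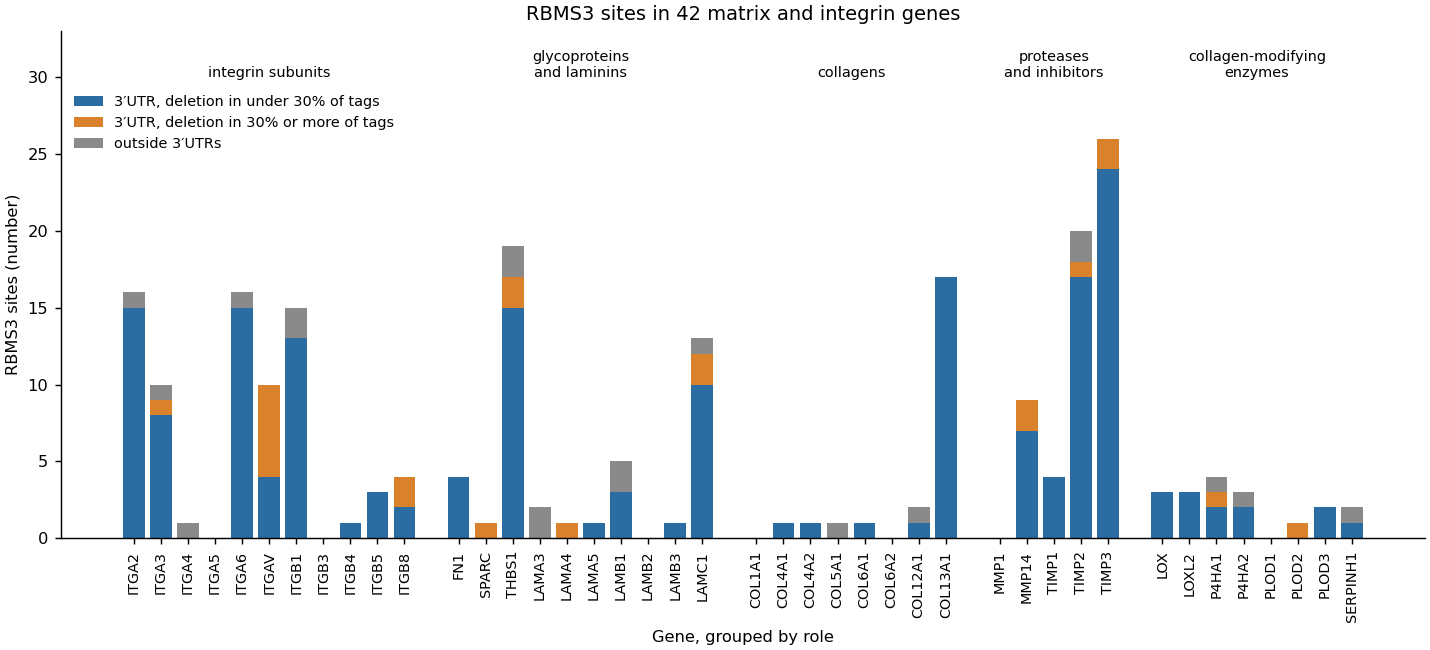
Number of RBMS3 sites in each of the 42 genes (vertical axis), grouped by role, with 3′UTR sites under 30% of tags with the deletion (blue), 3′UTR sites at 30% or more (orange) and sites outside 3′UTRs (grey). TIMP3 had the most sites (26), and 7 genes have no bar.

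The sites were unevenly shared among the bound genes. The median number of 3′UTR sites per bound gene was 3, against 2 in the other bound protein-coding genes. ITGA2, ITGA6, ITGAV, ITGB1, THBS1, LAMC1, COL13A1, TIMP2 and TIMP3 had 10 or more each, and these 9 genes held 143 of the 203 3′UTR sites (70.4%). At the other end, 11 genes had a single 3′UTR site. Single sites were as usual in other bound genes, since the lower quartile was 1 site per gene in both sets. The upper quartile was 10.5 sites, against 4. Among all 6372 bound genes, those with 1 site shared rank 3992 by number of sites, and ITGAV with 10 sites had rank 301. Counted by deletions, TIMP3, ITGA2 and THBS1 held 17982 of 36856 (48.8%). Sites within 50 nt were joined, which left 69 clusters in the 3′UTRs. Of the 32 genes, 14 had at least 2 clusters (43.8%, against 36.1% of all genes with a 3′UTR site).

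Of the 223 sites, 203 lay in 3′UTRs (91.0%, interval 86.6 to 94.1%), compared with 81.2% over the other protein-coding genes. Another 13 were in introns (5.83%, against 14.9%), 5 in coding sequence (2.24%, against 2.60%) and 2 in 5′UTRs (0.897%, against 0.427%). Coverage at the 3′UTR sites was high, with a median of 12659 tags per site against 4864 in other genes. The median percentage of tags with the deletion was 1.27%, against 1.98%. The median number of deletions differed less, 80 against 64.

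Percentages and depth fell into separate ranges. At 181 3′UTR sites the deletion was present in less than 30% of tags, and these had at least 383 tags each. The 22 with 30% or more (10.8%, against 12.9% in other genes) had at most 52 tags. All 20 sites outside 3′UTRs had 30% or more (against 74.7% of such sites in other genes), with 7 to 41 tags. At 21 of the 223 sites every tag carried the deletion (7 to 33 tags each). The fewest deletions at any of the 223 sites were 7, so a site with few tags could be listed only at a high percentage. The part of site calling in the split was not tested.

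**Figure D2:**
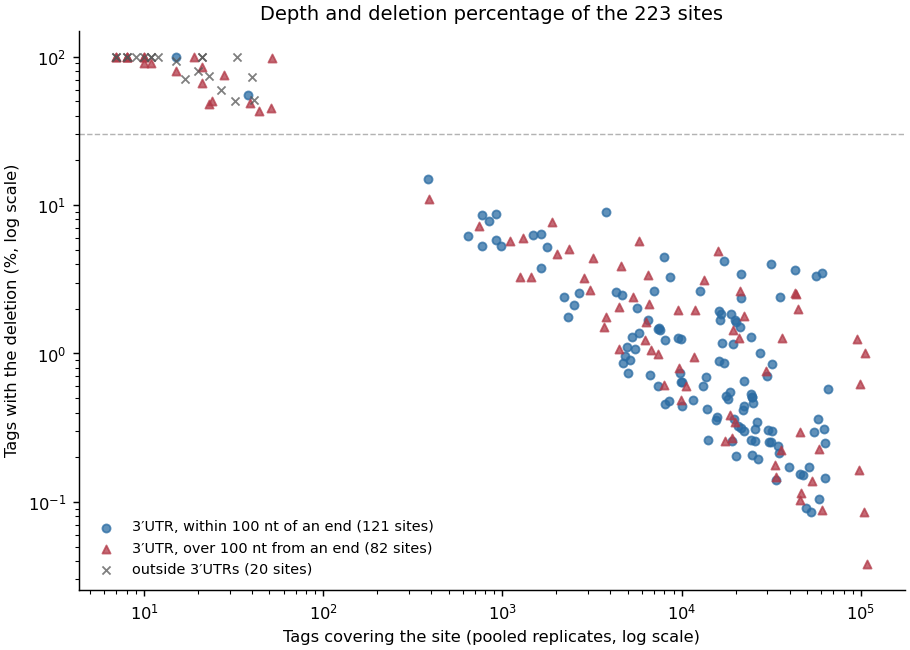
Tags covering each of the 223 sites (horizontal axis, log scale) against the percentage of those tags with the deletion (vertical axis, log scale), with 3′UTR sites within 100 nt of an annotated end (blue circles), other 3′UTR sites (red triangles) and sites outside 3′UTRs (crosses). The dashed line is 30%, and no site above it has more than 52 tags.

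Integrin subunits held 70 3′UTR sites in 8 of 11 genes. ITGA2, the collagen-binding alpha chain (chromosome 5, 52989340 to 53094779), had 15 of them and 4451 deletions. At its strongest site, position 53094576, 1093 of 43235 tags carried a deleted G (2.53%, interval 2.38 to 2.68%). The neighbouring T had 1089 of 42821 tags (2.54%), and the G 4 nt upstream, at 53094572, had 894 of 44664 (2.00%). These sites and 10 others formed 1 cluster that ended 202 nt before the last annotated end of ITGA2. The AATAAA shown above for ITGA2 lies inside this cluster. Within 100 nt of an annotated end ITGA2 had 1 site, where 41 of 769 tags carried the deletion. The remaining cluster of ITGA2, at 53092602 and 2177 nt from the end, had 66 of 3762 tags.

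ITGA3, an alpha chain that binds laminins, had 9 3′UTR sites, 8 of them in a cluster 4 to 52 nt from an end. Its strongest site was the first A of AATAAA at 50090460, with 860 of 35532 tags (2.42%, interval 2.27 to 2.59%), 20 nt from the end. A T at 50090433 had fewer tags but a higher percentage, 720 of 17147 (4.20%). In ITGA6, a laminin-binding alpha chain, 15 sites formed 2 clusters around alternative ends. The strongest was at 172506156, with 413 of 13292 tags (3.11%, interval 2.83 to 3.42%), 102 nt before the nearest end. Coverage in that cluster rose to 35107 tags 3 nt before that end. Near the last annotated end of ITGA6 only 383 and 923 tags covered the 2 sites, which had deletions in 14.9% and 5.85% of them.

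ITGAV, the alpha chain of several receptors for vitronectin and fibronectin, had 7 clusters, as many as TIMP3 and the highest number in the list. Of its 10 sites, 4 formed a cluster at the end of the transcript, with up to 24476 tags. The strongest of these, at 186680878 and 8 nt from the end, had 131 deletions (0.535%, interval 0.451 to 0.635%).
ITGAV (chr2:186680866-186680895, plus strand): ttgtgactgtacAATAAAcataagcatatg
The other 6 clusters of ITGAV were single sites with 7 to 51 tags, so its high number of clusters rests on sites of low coverage. ITGB1, the beta chain that pairs with ITGA2, ITGA3 and ITGA6, had 13 3′UTR sites, all within 100 nt of an annotated end. The strongest, at 32900422, had 197 of 16832 tags (1.17%, interval 1.02 to 1.34%). For ITGB1, 12 of the sites lay at 32900329 to 32900422. The remaining one, at 32929998, had 110 of 7446 tags and lay 13 nt from the end of a shorter annotated transcript.

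ITGB5, a beta chain that pairs with the ITGAV product, had 3 sites in 3 clusters. Its strongest, at 124763171, had 179 of 4590 tags (3.90%, interval 3.38 to 4.50%) and lay 223 nt from an end, beside AATAAA.
ITGB5 (chr3:124763166-124763195, minus strand): tatgaAATAAAaagatcctgcattTatggt
The 2 sites nearer to the end of ITGB5 had fewer tags, 1638 and 919. ITGB8 had 4 sites, and the strongest had 105 of 1642 tags (6.39%). ITGB4, the hemidesmosome chain, had 1 site with 110 of 6502 tags (1.69%). ITGA4 had a single intronic site, at 181475620, where all 33 tags carried the deletion.

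Among glycoproteins and laminins, 8 of 10 genes had 3′UTR sites, 40 in all. THBS1 encodes thrombospondin-1, a secreted glycoprotein known for restraining vessel growth (chromosome 15, 39581079 to 39599466). One of its sites was covered by 108179 tags, which gave THBS1 rank 3 of 6372 bound genes by coverage. Its 17 3′UTR sites included no site within 100 nt of an annotated end. Instead, 13 of them formed a cluster from 39597355 to 39597456, around the AATAAA shown above and ending 2010 nt before the nearest annotated end. Tags in this cluster rose from 2017 at its first site to 108179 at 39597445, just past the hexamer, and were 95108 at the last. The strongest site was the last, with 1188 deletions (1.25%, interval 1.18 to 1.32%). The next was inside AATAAA, at 39597439, with 1068 of 105771 tags (1.01%, interval 0.951 to 1.07%). Between them, at 39597445, only 41 tags had the deletion (0.0379%, interval 0.0279 to 0.0514%), the lowest percentage in the list. Upstream, THBS1 had lower coverage, 2862 tags at 39596515 and 1891 at 39596824.

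LAMC1, the gamma chain shared by most laminins, had 12 3′UTR sites in 5 clusters. Of these, 7 lay 13 to 38 nt from its end with 19241 to 31949 tags. A T at 183145579 was deleted in 1255 of 31509 tags (3.98%, interval 3.77 to 4.20%), the highest number of deletions in this role. The next in the same cluster was a T at 183145559 with 505 of 21299 (2.37%), and the intervals of the others lay below. The 4 clusters of LAMC1 farther upstream had at most 1256 tags. FN1, which encodes fibronectin, had 4 sites 7 to 44 nt from an annotated end. The strongest, at 215360873, had 355 of 7934 tags (4.47%, interval 4.04 to 4.95%). LAMB1 had 3 sites near its end, led by 122 of 9495 tags (1.28%). LAMA5 and LAMB3 had 1 site each, with 37 of 4999 and 53 of 2511 tags.

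SPARC, a matrix protein that binds collagen, had a single site at 151663449, 961 nt from an end, where 51 of 52 tags carried the deletion (98.1%, interval 89.9 to 99.7%).
SPARC (chr5:151663434-151663463, minus strand): ctaacatagatttaAgtgaatacattaacg
This is the pattern of the sites with low coverage rather than that of THBS1 or LAMC1. LAMA4 likewise had 1 site, with 21 of 38 tags. LAMA3 had no 3′UTR site, only a coding site with 14 of 15 tags and an intronic site with 7 of 7.

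Collagen sites were concentrated in a single gene. COL13A1, a transmembrane collagen found at cell junctions, held 17 of the 21 3′UTR sites. Its strongest, at 69958910, had 728 of 21283 tags (3.42%, interval 3.18 to 3.67%), at the first base of a run of 6 T. All 17 lay within 54 nt of one of the alternative ends annotated for COL13A1, but 5146 to 5504 nt before the last one. A second large cluster was led by a T at 69959113, with 317 of 21051 tags (1.51%). The other 4 bound collagens had a single 3′UTR site, each 18 to 20 nt from an end. COL6A1, of the microfibrillar collagen VI, had 68 of 2669 tags at 46005028 (2.55%, interval 2.01 to 3.22%). The basement membrane collagen genes COL4A2 and COL4A1, which lie head to head on chromosome 13, had 55 of 4949 at 110513007 (1.11%, interval 0.855 to 1.44%) and 41 of 2318 (1.77%). COL12A1 had 40 of 642 (6.23%), and COL5A1 had only an intronic site with 11 of 11 tags.

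Proteases and inhibitors were led by the inhibitors. TIMP3, the TIMP that is held in the matrix (chromosome 22, 32801705 to 32863041), had 26 sites, all in the 3′UTR, in 7 clusters with 9083 deletions. Of these, 13 lay 5 to 68 nt from its only annotated end. The strongest, a T at 32863026 and 15 nt from the end, was deleted in 2129 of 60950 tags (3.49%, interval 3.35 to 3.64%), the most deletions at any site of the list and rank 20 of 6372 bound genes. A T at 32863031 followed with 1879 of 56242 (3.34%, interval 3.20 to 3.49%), and a T at 32863004 with 1557 of 42648 (3.65%, interval 3.48 to 3.83%). The intervals of these 3 sites overlap, whereas the other 10 sites of the cluster were at 0.0914 to 1.30%. TIMP3 also had 4 clusters far upstream with low percentages, 1879 to 2508 nt from the end. The largest of them was led by a T at 32861141, with 778 of 15853 tags (4.91%, interval 4.58 to 5.25%), a higher percentage than at the end but with fewer tags.
TIMP3 (chr22:32861127-32861156, plus strand): tcagttcattccacTttaggaaacagagct

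TIMP2, a secreted inhibitor that also takes part in the activation of MMP2, had 18 3′UTR sites in 3 clusters. The strongest by deletions was a T at 78853254, 273 nt from an end, with 559 of 21168 tags (2.64%, interval 2.43 to 2.87%). The cluster at the end of TIMP2 had more tags, but fewer deletions at its strongest site, 378 of 65774 tags (0.575%, interval 0.520 to 0.635%). Over all sites of each cluster, deletions numbered 1436 at the end and 1338 in the upstream cluster. MMP14, a protease anchored in the cell membrane, had 9 3′UTR sites in 4 clusters. A T at 22847730, 28 nt from an annotated end, had 336 of 12659 tags (2.65%, interval 2.39 to 2.95%). An A at 22847741 had a similar number, 327 of 20149 (1.62%). TIMP1 had 4 sites near its end, led by 312 of 16200 tags (1.93%, interval 1.73 to 2.15%), whereas the collagenase gene MMP1 had none.

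**Figure D3:**
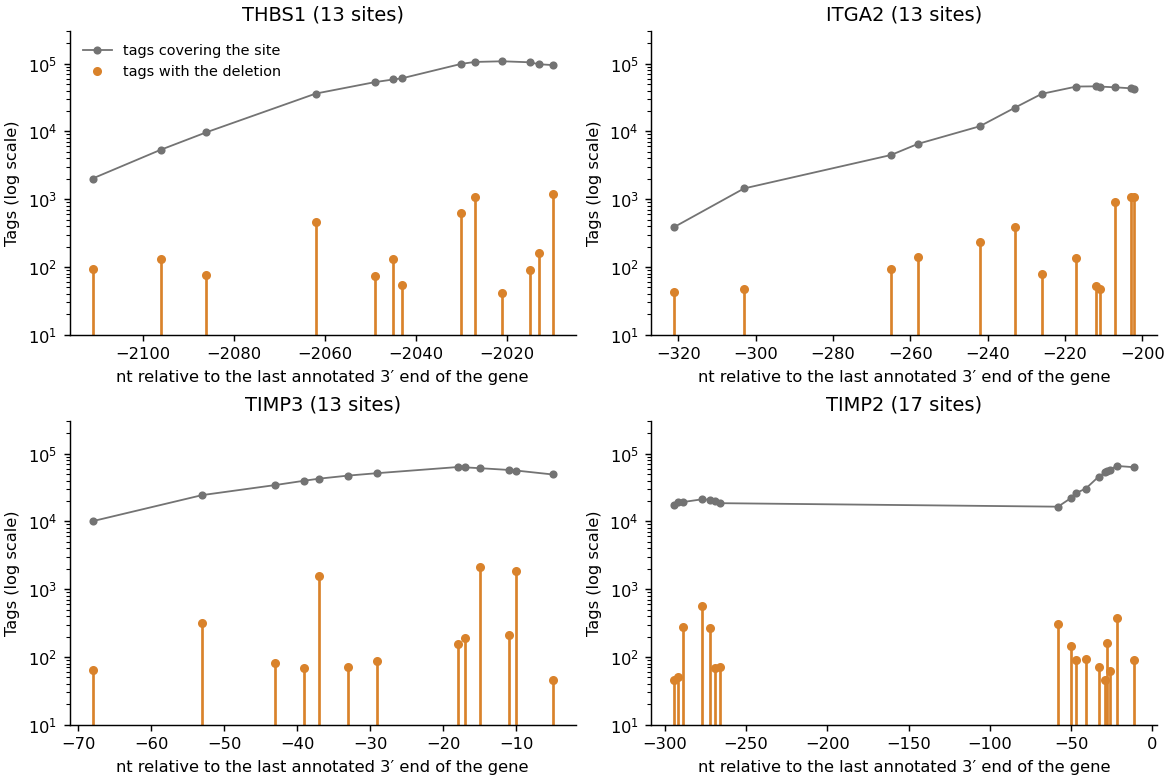
Tags covering each site (grey) and tags with the deletion (orange stems), both on a log scale, against the distance from the last annotated 3′ end of the gene (horizontal axis, nt) for the main clusters of THBS1, ITGA2, TIMP3 and TIMP2. The cluster of THBS1 ends 2010 nt and that of ITGA2 202 nt before the annotated end, that of TIMP3 lies next to it, and TIMP2 has both kinds.

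Enzymes that modify collagen had fewer sites per gene, 15 3′UTR sites in 7 of 8 genes. SERPINH1, which encodes the collagen chaperone HSP47, had 1 site at 75572752, 30 nt from an end, with 344 of 3804 tags. Its 9.04% (interval 8.17 to 10.0%) was high for a site of this depth, and the deletion was listed at the first base of a run of 10 T. PLOD3, a lysyl hydroxylase, had 115 of 4639 tags at 101205988 (2.48%, interval 2.07 to 2.97%), 4 nt from an end. P4HA1, a prolyl hydroxylase subunit, had 108 of 7399 tags at 73007243 (1.46%, interval 1.21 to 1.76%), 19 nt from an end, and P4HA2 had 66 of 843 (7.83%).

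PLOD2, a lysyl hydroxylase whose product stabilizes crosslinks in tumor collagen, had a single site at 146070002, 434 nt from an end, where all 8 tags carried the deletion (100%, interval 67.6 to 100%).
PLOD2 (chr3:146069987-146070016, minus strand): gcaggtattagattTaggaaaacctttcca

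Of the lysyl oxidases, which crosslink collagen and elastin, LOX had 3 sites in 1 cluster. The strongest, at 122064532, had 74 of 7407 tags (0.999%, interval 0.797 to 1.25%) and lay 1337 nt from the next annotated end, but the most upstream site of LOX lay 4 nt before an alternative end.
LOX (chr5:122064513-122064542, minus strand): tgtatttctaAtaATTAAAaatgtgttcaa

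LOXL2, another lysyl oxidase, also had 3 sites in 1 cluster, led by 64 of 10541 tags at chromosome 8, position 23297202 (0.607%, interval 0.476 to 0.775%). These lay 305 to 314 nt from its end, so LOXL2 had no site within 100 nt of one.

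The 20 sites outside 3′UTRs were spread over 15 genes, and all had few tags. In introns, every tag carried the deletion in ITGA2 (53056791, 9 tags), ITGA3 (50056795, 11 tags), ITGA4 (33 tags), ITGB1 (32890969, 12 tags), LAMA3 (23889570, 7 tags), LAMB1 (107945848, 8 tags), COL5A1 (134819675, 11 tags), COL12A1 (75148011, 8 tags), P4HA1 (73084846, 10 tags) and P4HA2 (132193874, 21 tags). The other intronic sites were in ITGB1 (32910494, 29 of 40 tags), LAMB1 (107976893, 16 of 27) and LAMC1 (183140231, 21 of 41). Coding sites were found in THBS1 (39589873, 12 of 17 tags, and 39594159, 16 of 32), LAMA3 (23796144, 14 of 15), TIMP2 (78870926, 17 of 23) and SERPINH1 (75566439, 21 of 21). The 2 sites in 5′UTRs were in ITGA6 (172427693, 7 of 7 tags) and TIMP2 (78873844, 16 of 20). The lower limits of their intervals ran from 33.6% in THBS1 to 89.6% in ITGA4. In THBS1, ITGB1 and TIMP2 these sites had far fewer tags than the largest 3′UTR clusters of the same genes. The ITGB1 site at 32929998, counted as 3′UTR and covered by 7446 tags, is coding sequence in the representative transcript. So are the ITGA3 site at 50076407 and the ITGAV site at 186675652, also counted as 3′UTR, and the 5′UTR site of TIMP2. The coding site of LAMA3 is intronic in the representative transcript. It lies 4 nt before the end of another annotated transcript, with AATAAA near it. Coverage of gene bodies away from called sites is not known.

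Sites lay near transcript ends in most of the bound genes. Of the 32 genes, 28 had a 3′UTR site within 100 nt of an annotated end, and the 4 without one were THBS1, SPARC, LOXL2 and PLOD2. With only sites under 30% counted, 27 genes had one. The same count by gene is not given here for other protein-coding genes. Counted by site, the share this close to an end was 59.6% (121 of 203, interval 52.7 to 66.1%), against 69.1% in other protein-coding genes. The median distance was 47 nt, against 34 nt. A few genes with many sites set these values. Without THBS1 the share was 65.1%, without ITGA2 63.8%, without both 70.2%, and without COL13A1 55.9%. By role, the share was 42.5% in glycoproteins and laminins, which include THBS1, and 100% of 21 sites in collagens, which are mostly those of COL13A1. Annotation matters here as well. With 1 representative transcript per gene the share fell to 46.5%. For 9 sites of ITGA6 and 9 of COL13A1 the annotated end within 100 nt belonged to another transcript than the representative one, as it did for 2 sites of ITGB1. The same held for every site this close to an end in COL4A2, ITGB5, LAMA4, LOX and P4HA2.

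**Figure D4:**
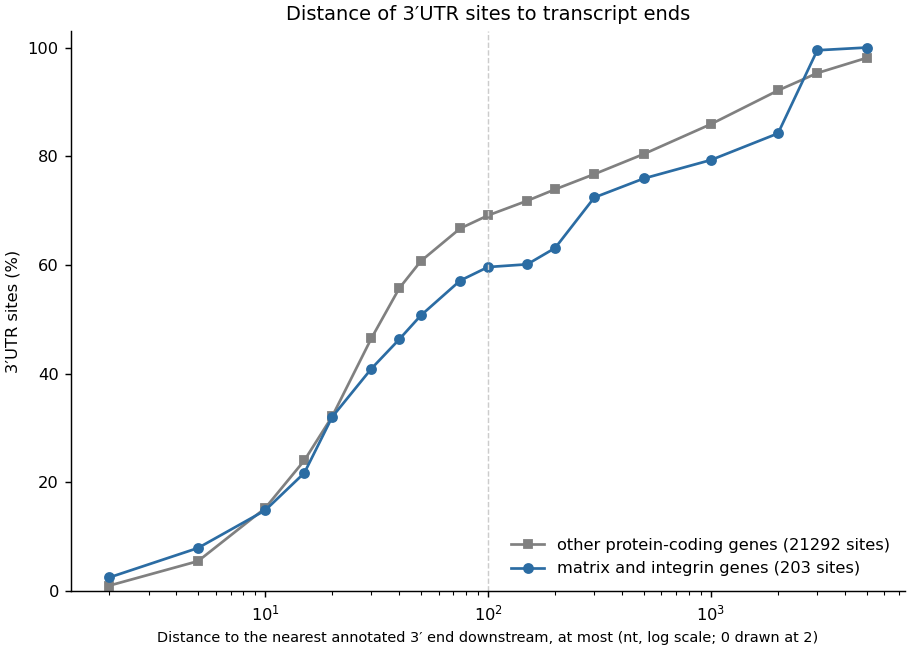
Share of 3′UTR sites (vertical axis, %) that lie at most a given distance (horizontal axis, nt, log scale) before an annotated 3′ end, for the 203 sites of the matrix and integrin genes (blue) and 21292 sites of other protein-coding genes (grey). The curves meet at 20 nt (32.0% and 32.1%) and part to 59.6% and 69.1% at 100 nt.

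Poly(A) signals were found beside many, but not all, of the deeply covered sites. In windows of 51 nt centred on the strongest deletion of each cluster, AATAAA on the transcript strand was present in 27 of 69 clusters (39.1%, interval 28.5 to 50.9%), against 47.3% in other genes. All 27 were among the 47 clusters below 30%, and none was among the other 22. In other genes too, AATAAA was more frequent below 30%, although not absent at 30% or more. There it was in 65.1% of clusters below 30% against 61.1% of all clusters within 100 nt of an end. Farther from an end these shares were 46.0% and 27.6%. In 16 of the 27 the hexamer started before the deletion, at a median of 8 nt upstream over all 27, and in 3 the deleted base was part of it. Deep clusters without AATAAA included those led by 32863026 in TIMP3 (60950 tags), 69958910 and 69959113 in COL13A1 (21283 and 21051) and 32900422 in ITGB1 (16832). Each of these had a variant in the window. The TIMP3 cluster led by 32861141 (15853 tags) had neither. In 17 clusters with deletions in under 30% of the tags, the strongest site lay over 100 nt from the next annotated end downstream. They were in 10 genes, including THBS1, ITGA2, ITGB5 and TIMP2. The clusters of ITGA6 and LOX among them also hold sites within 100 nt of an alternative end. AATAAA was present in 9 of these 17, against 46.0% of such clusters in other genes. Within 100 nt of an end it was present in 18 of 30, against 65.1%. A run of 6 or more A in the genome within 50 nt downstream, on which oligo(dT) could prime, followed 3 of these 17 clusters (16.8% in other genes). It followed 4 of the 30 near an end (10.2%).

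The AUA motif, which the study attributes to RBMS3, is the pattern NNATANA, in which the first N is any base but C and each other N is A or T. It was searched on the transcript strand in the same windows and was present in 27 of 69 clusters (39.1%, interval 28.5 to 50.9%), against 47.7% in other genes. Some matches contain AATAAA itself. When these were not counted, 8 clusters had a match (11.6%, interval 5.99 to 21.2%), against 14.5%. Among the strongest sites, those of ITGA3, ITGA6 and LAMB1 had such a separate match. For ITGA2, LAMC1, FN1 and TIMP2 the match was the poly(A) signal, and for THBS1, TIMP3 and COL13A1 there was no match in the window.

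The deleted base was a T in 54 of 69 clusters (78.3%, interval 67.2 to 86.4%), against 74.4% in other genes, and the T stood in a run of 3 or more T in 41 clusters (59.4%, against 61.2%). At the strongest site the deleted base was a G in ITGA2 and LOXL2, a C in P4HA2, and an A in ITGA3, ITGAV, SPARC, COL6A1, TIMP1 and LOX. For each of these features the interval of the listed genes includes the value of the other genes, apart from the share within 100 nt of an end. That share was counted over sites, which share tags, and the sequence features over clusters, so the 2 kinds of interval are not alike. The share was 70.2% without THBS1 and ITGA2, 46.4% with 1 site per cluster and 71.9% with 1 site per gene.

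**Figure D5:**
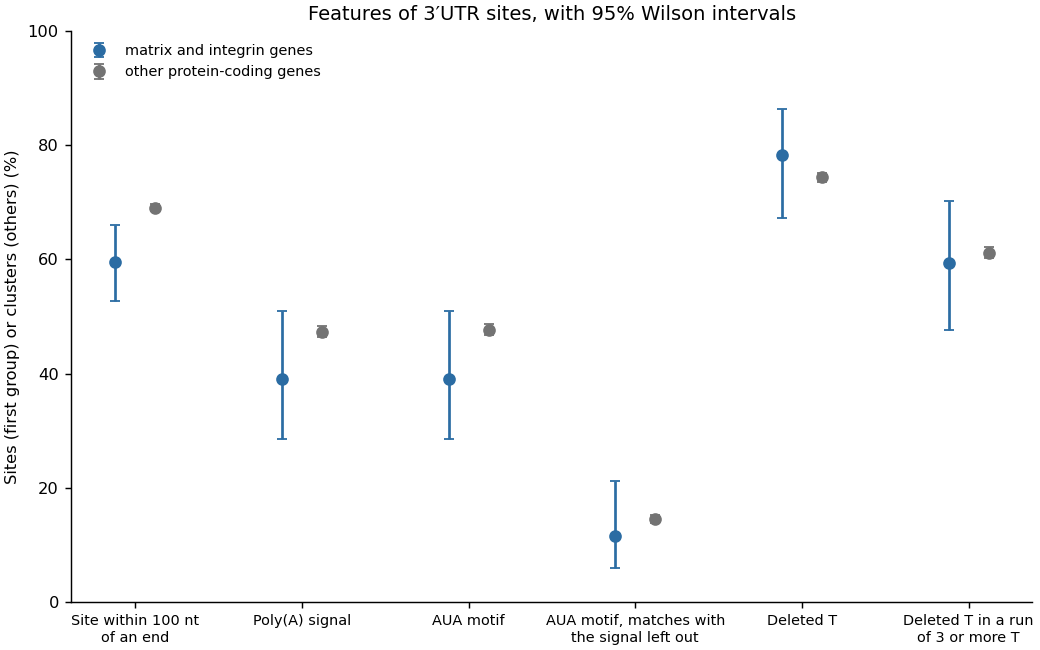
Share (vertical axis, %) of 3′UTR sites within 100 nt of an end and of 3′UTR clusters with each sequence feature, for the matrix and integrin genes (blue) and other protein-coding genes (grey), with bars for 95% Wilson intervals, which cover counting error only. The intervals overlap for the sequence features, and the first pair is 59.6% against 69.1%.

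The genes without a site did not lack a poly(A) signal. In the last 50 nt of the representative 3′UTR, AATAAA was present in ITGA5, LAMB2, COL1A1, COL6A2 and MMP1, and ATTAAA in ITGB3 and PLOD1. Among the 13 genes without a 3′UTR site under 30%, AATAAA was present there in 69.2%, against 65.5% of the 29 genes with one. Their representative 3′UTRs had a median length of 1280 nt and an A and T content of 54.0%, against 1403 nt and 58.5% in the 29 genes. Over the other protein-coding genes the length and content were 841 nt and 55.9% without such a site and 1603 nt and 61.5% with one. There AATAAA was less frequent without such a site, 61.2% against 69.3% with one. COL6A2 and LAMB2, with 299 and 115 nt of 3′UTR and 27.4% and 39.1% A and T, lie at the low end, but ITGB3 has 3542 nt and 54.0%. The median number of AUA motifs per kb was 2.02 in the 13 genes and 2.44 in the 29. In the other genes it was 1.94 without such a site and 2.95 with one. ITGA5, LAMB2, COL6A2 and PLOD1 had no motif in the representative 3′UTR, and ITGB3, COL1A1 and MMP1 had 2 or 3. The bound genes ITGB1 and SERPINH1 also had none.

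Genes of the same pathways outside the list gave a wider view. Of 150 further matrix and adhesion genes, taken for their function, 50 had a 3′UTR site (33.3%, against 31.8% of all protein-coding genes). Adhesion proteins linked to integrins had the highest share, 19 of 30 (63.3%). The lowest were collagens, 3 of 25 (COL18A1, COL4A5 and COL8A1), and integrin subunits, 2 of 15 (ITGAE and ITGA1, the latter with 14 of 18 tags). Laminins and glycoproteins had 11 of 36, proteases and inhibitors 7 of 25, and collagen-modifying enzymes 8 of 19. The strongest site belonged to ADAM9, a membrane protease, with 1720 of 59173 tags (2.91%). It was followed by CD151, a tetraspanin that binds laminin receptors, with 880 of 19041 (4.62%), CD47, a receptor for thrombospondin-1, with 611 of 24728 (2.47%), CD9 with 591 of 72058 (0.820%) and FNDC3B with 467 of 7848 (5.95%).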

How the data were processed

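MDA-MB-231 cells expressing FLAG-tagged RBMS3 were profiled by CLIP-seq in 2 biological replicates. The authors appended molecular identifiers to the reads, ran the CLIP Tool Kit (version not given in the sources used here), aligned to hg38, pooled both replicates and called deletions as crosslinking-induced mutation sites at a false discovery rate under 10% and a fold change above 10, with no statement of what the fold compares. The listed genes hold 11 sites with fewer than 10 deletions and 5 with deletions in under 0.1% of the tags, so it is neither a minimum of 10 deletions nor of 10%. The deposited values are counts per site, of pooled tags and of tags with the deletion, and are not normalized. Calling on the pool means that a site can rest on 1 replicate.

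The deleted base was taken as the centre of each 21-nt interval and placed on all transcripts of GENCODE release 44, in the order 3′UTR, 5′UTR, coding sequence, other exon and intron. Distances are genomic, to the nearest annotated end downstream in the gene. Sites within 50 nt were joined, and the site with the most deletions stood for its cluster. No tests were run, and shares have 95% Wilson intervals, or medians their order-statistic intervals. The genes and lists were chosen with earlier results of these data known. Every listed gene is named. In each role the 3 genes with the most deletions at their strongest 3′UTR site were described in full, as were the 3 with the most clusters (4 with a tie) and those whose strongest site lay over 100 nt from an end. Sites outside 3′UTRs are given by position and counts, and no sequence is printed for them or for LOXL2. Placement was tested on 1000 made-up sites, all recovered. Alternatives were filters on deletions or percentages, other units of counting, windows, motifs and annotation rules, and leaving out single genes, the last chosen after seeing the data. The software was Python 3.11.15 with numpy 2.4.6, matplotlib 3.10.9, pandas 2.3.3, pysam 0.24.0 and scipy 1.17.1, and samtools 1.23.1.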

Additional observations from a re-analysis of the deposited data

How the results depend on the processing

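Of 80 values recomputed under alternatives, 47 stayed within their limits and 33 moved, and the cause was not tested. Requiring deletions in at least 10% of the tags moved most results, and this filter keeps mainly sites of low coverage. It left 44 sites and 14 genes with a 3′UTR site, a 3′UTR share of 54.5%, 12.5% of 3′UTR sites within 100 nt of an end at a median of 869 nt, the AUA motif in 12.5%, AATAAA in 0 and a median percentage of 87.9%. With deletions in under 30% of the tags the 3′UTR share was 100%, the AUA motif was in 53.2% and AATAAA in 57.4%. With at least 20 deletions these were 97.4%, 51.0% and 52.9%, and with at least 50 deletions 100%, 52.3% and 56.8%. With 1 representative transcript per gene, 46.5% of sites lay within 100 nt of an end at a median of 202 nt. With 1 site per cluster these were 46.4% and 194 nt, and the median percentage was 5.07%. With 1 site per gene they were 71.9%, 20 nt and 2.54%, with the AUA motif in 59.4% and AATAAA in 68.8%. In windows of 10 nt on each side the motif was in 13.0% and AATAAA in 14.5%. Without matches that contain AATAAA the motif was in 11.6%, and AATAAA or ATTAAA was in 52.2%. Deleted T made up 65.0% over every site and 37.5% where the base differed from its neighbours (8 clusters). Leaving out THBS1, ITGA2, TIMP3 or COL13A1 kept the share near ends between 55.9 and 65.1% and the median distance between 38.5 and 61 nt.

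No paired analysis was possible because the 2 replicates form 1 group and were pooled before calling. For the same reason neither replicate could be left out. Depth limits the sites with 30% or more, which have at most 52 tags. Sites with low percentages had at least 383 tags in these genes, and the coverage of positions without a site is not given in the list, so an unbound gene may be one with few tags.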
